A study of Homo sapiens with 2 samples.

Results

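The forkhead transcription factor genes described here are FOXK1, FOXK2, FOXO1, FOXO3, FOXM1, FOXJ2, FOXJ3, FOXP1 and FOXP4. They are 9 of the 11406 named genes with an entry in the data, and their sites were taken as every entry that carries one of these gene names. All 9 had entries, 200 of the 72449 sites of replicate 1 and 212 of the 81554 of replicate 2. Both replicates listed 174 of these sites, out of 60462 shared sites in all genes, and FOXP1 was the member with no shared site.

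The data are maps of N6-methyladenosine (m6A) in messenger RNA of HEK293T, an established line of human embryonic kidney origin, made with GLORI. GLORI deaminates unmodified adenosine with glyoxal and nitrite so that it is sequenced as G, while m6A is still sequenced as A, and the level of a site is the share of A among its A and G reads. There was 1 group, wild-type cells labelled Day 0 and carried through the GLORI reaction, with 2 replicates from 100 to 200 ng of poly(A) RNA and no untreated or methylation-deficient library. Nothing in the labels tells whether the replicates came from separate cultures, so their spread may be technical, and the identity of the cells cannot be checked by marker genes in lists of methylated sites.

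The lists hold sites with at least 15 reads, at least 5 A reads and a level of at least 10%. A site with 15 reads could be listed only from a level of 33.3%, and 50 reads were needed for 5 A reads to amount to 10%. A gene with few reads can therefore show its strongly methylated sites and not its weak ones, and a position without an entry may lack methylation or reads. Coverage stands beside the levels of the members for this reason, and as a median beside those of each gene list. Entries also carry a deposited adjusted p-value, and a limit on it may have removed further weak sites. The unconverted share of the members ran from 2.06% (FOXJ2) to 4.42% (FOXK2) in replicate 1. In replicate 2 it ran from 2.19% (FOXJ3) to 4.62% (FOXO1). Whether the lowest level that could be listed differed with that share was not tested. Member sites held 14541 of 5221660 listed reads in replicate 1 and 18190 of 6306522 in replicate 2, totals that cover listed sites and not the whole libraries.

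Forkhead proteins bind DNA through a winged-helix domain and act as activators or repressors of transcription. FOXO proteins are held outside the nucleus when insulin or growth factors activate AKT, and FOXK proteins also respond to insulin and mTOR signalling. FOXM1 drives genes of the later cell cycle, and FOXP proteins pair through a leucine zipper and mostly repress. m6A is laid down on nascent RNA by the METTL3-METTL14 complex, mainly within a short motif with a central A followed by C, and reader proteins that bind it can speed the decay of an mRNA or alter its translation.

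The sequence around a site could be read from RefSeq for 2 FOXO3 sites, which lie in a window of 250 bases before to 50 after an annotated start (GRCh38.p14, plus strand). That start lies inside the gene span, since the sites are 1192 and 1228 nt from the start of the span, from which the other distances to a start are counted. The sites are shown because they place one site inside the usual m6A motif and the other outside it. The 5 bases centred on the listed A are in capitals.
FOXO3, chr6:108561007-108561027: gcgggcgaGGACTcgccgagg
FOXO3, chr6:108561043-108561063: gggataacCAACTctccttct
The first is centred on position 108561017, where replicate 2 had 6 A reads of 19 (31.6%), and the second on position 108561053, where it had 12 of 62 (19.4%). Replicate 1 listed neither. The unconverted share of FOXO3 in replicate 2 was 4.22%. There was no methylation-deficient library, so m6A and A left unconverted were not told apart at these sites. GGACT occurred on the gene's strand in 25.2% of all 34943 RefSeq start windows and on either strand in 44.1%, and CAACT in 17.8% and 33.1%. Of the 2092 listed sites of all genes that fell inside such a window, 100% had A at the listed position, 46.2% had A followed by C and 28.4% lay in the canonical motif, which has A, G or T, then A or G, before the A and C, then A, C or T, after it.

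FOXO3, an effector of insulin signalling that activates stress resistance, autophagy and cell cycle arrest genes, had the most sites. Replicate 1 listed 51 and replicate 2 listed 53, of which 47 were shared, against a median of 4 shared sites in genes of the same decile of deposited gene coverage. The gene spans chr6:108559825-108684774 on the plus strand, with gene coverage of 54.7 and 61.3. Its mean level was 47.7% in replicate 1 and 47.4% in replicate 2, with a mean over both of 47.6% ± 0.539 (counting SE over 47 sites).

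Few of its sites were near that mean. The shared sites counted 27 under 40%, namely 7 under 20% and 20 from 20 to 40%, then 3 from 40 to 60%, 5 from 60 to 80% and 12 of at least 80%. The median was 29.0%. Over all named genes 19.1% of shared sites lay between 40 and 60%, and in FOXO3 6.38% did. Position 108561495 was read as A in 56 of 56 reads and in 67 of 67 (100%, 95% Wilson interval of the summed reads 97.0 to 100). The most deeply read site, 108664587, had 197 of 206 A reads and 258 of 270, a mean of 95.6%. The lowest, 108683251, had 15 of 96 and 13 of 118, a mean of 13.3%. Positions 108664587 and 108683251 exceeded the median depth of shared FOXO3 sites (73 and 95 reads), and the site at 100% did not.

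The FOXO3 sites fell into 4 runs, a run being a stretch in which neighbouring shared sites are at most 1000 nt apart in the genome. The first run, 1439 to 1907 nt from the annotated start, had 5 sites with a median level of 25.8%. It holds position 108561495, which was read as A throughout. The second held 24 sites within 1292 nt, 18.6 per kb, with a median of 28.5% and 7 sites of at least 80%. The third, 8 sites within 582 nt, had a median of 75.3%, and the last, 10 sites within 1707 nt that ended 254 nt before the annotated gene end, had 26.4%. In the third run replicate 1 had a median of 78.5% and replicate 2 of 73.6%, above the medians of the other runs in both, and its sites were less deeply read, at a median of 36.5 and 45 reads against 90 and 105 in the second run. The part of that difference in depth in the difference of levels was not tested.

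FOXO3 has a near-identical copy, FOXO3B on chromosome 17, which itself had entries at position 18671618 (6 of 18 and 5 of 15 A reads, 33.3% in each) and, in replicate 2, at 18672304 (8 of 49, 16.3%). Reads of the common sequence may be split between the copies, so levels at such positions of FOXO3 are uncertain.

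FOXO1, the second FOXO member, which controls glucose production genes in liver and is likewise an AKT substrate, had the highest mean level and the least coverage. Its gene coverage was 12.3 and 14.1, and 9 sites were shared, against a median of 2 in its coverage decile. The gene spans chr13:40555667-40666641 on the minus strand. The mean level was 66.3% in replicate 1 and 73.3% in replicate 2, 69.8% ± 1.95 over both, against a decile median of 58.6%. Of the 9 sites 5 were at least 80%, and none was under 20%. Position 40666175, near the annotated start, had 19 of 20 and 16 of 17 A reads (94.6%). Position 40558503 was the lowest with 5 of 27 and 7 of 23 (24.5%), and the most deeply read, 40666304, had 31 of 45 and 47 of 59 (74.3%). That last site alone reached 30 reads in each replicate. The order of FOXO1 above the other members thus rests on sites of low depth, and no FOXO1 site was left at 50 reads.

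**Figure D1:**
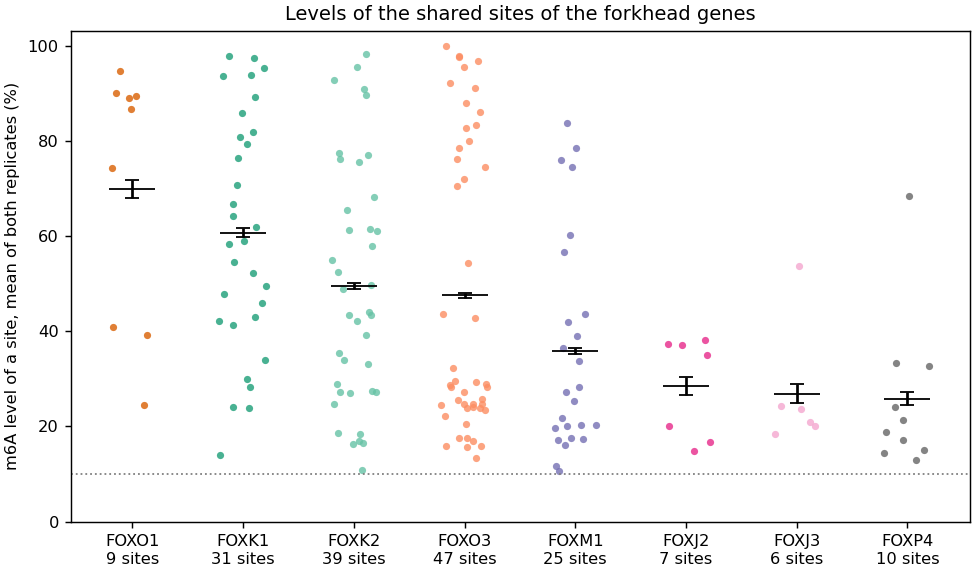
Each point is the m6A level (%) of one site listed in both replicates, as the mean of the replicates, for the 8 forkhead genes with such a site, ordered by mean level; horizontal marks are the gene means with bars of 1 counting SE, and the dotted line is the 10% limit of the lists. FOXO3 points gather below 40% and above 70%, FOXK1 and FOXK2 points fill the range, and FOXJ2, FOXJ3 and FOXP4 points lie low apart from 1 site each in FOXJ3 (53.7%) and FOXP4 (68.4%).

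FOXK2, a repressor that recruits SIN3 and the deubiquitinase BAP1 and that restrains autophagy genes, had 41 sites in replicate 1, 46 in replicate 2 and 39 in both. Gene coverage was 76.8 and 88.9, and genes of that decile had a median of 4. The gene spans chr17:82519732-82604602 on the plus strand. The mean level was 50.1% and 48.8% in the replicates, 49.5% ± 0.669 together, and the levels were spread over the whole range, with 6 sites under 20%, 10 from 20 to 40%, 9 in each of the next 2 classes of 20 points and 5 of at least 80%. Position 82601598 was both the highest and the most deeply read, with 202 of 203 and 262 of 270 A reads (98.3%). The lowest was 82601346, with 17 of 149 and 19 of 189 (10.7%). These sites are 252 nt apart, and both had over 100 reads in each replicate.

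Nearly all FOXK2 sites, 38 of 39, lay in one run of 2840 nt (13.4 per kb) that reached from 3256 to 417 nt before the annotated gene end, with a median distance of 39 nt between neighbours. The remaining site, 82587206, was 17396 nt before the end at 70.3% and 52.6%, in a stretch where the antisense gene FOXK2-AS1 is also annotated.

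FOXK1, the paralogue of FOXK2 with a like role in autophagy and in the shift to glycolysis, had 37 sites in replicate 1, 41 in replicate 2 and 31 in both, at gene coverages of 31.9 and 37.9. The decile median was 5. The gene spans chr7:4682295-4771442 on the plus strand. Mean levels of 62.1% and 59.4% gave 60.7% ± 0.868, against a decile median of 46.4%. Only 1 site was under 20% and 9 were at least 80%. Position 4767560 had 33 of 33 and 43 of 45 A reads (97.8%), position 4766157 was lowest with 8 of 52 (15.4%) and 9 of 71 (12.7%), and the most deeply read, 4762597, had 62 of 109 and 67 of 110 (58.9%).

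The FOXK paralogues thus differed in mean level by more than their counting errors over all shared sites, but their order turned at the higher of 2 minimums of reads. With a minimum of 50 reads per replicate the mean was 43.6% ± 1.54 for FOXK1 (6 sites) and 49.7% ± 0.551 for FOXK2 (25 sites). At 30 reads FOXK1 was still higher, at 58.6% (21 sites) against 48.3% (33 sites). The 9 FOXK1 sites of at least 80% all had under 50 reads in a replicate, and the 5 of FOXK2 all had at least 50 in each. Single sites ranged widely in both, with an SD over sites of 24.8 points in FOXK1 and 25.4 in FOXK2. A minimum does not make the depths of the genes equal.

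FOXK1 also differed from FOXK2 in where its sites lay. A single site was 417 nt from the annotated start (47.8%), 18 sites lay in a run of 1737 nt with a median of 60.4%, and 12 in a run of 1404 nt with 64.4%. Of the 31 sites 11 (35.5%) were within 5000 nt of the annotated gene end and the nearest to that end was 3882 nt away, whereas 97.4% of FOXK2 sites were within 5000 nt and 5 within 1000 nt. Over all protein-coding genes 61.2% of shared sites lay within the last 5000 nt, 21.6% within the last 1000 nt and 14.4% within the first 2000 nt. Member sites together had 62.6%, 6.32% and 7.47%. Distances are along the genome and include introns, and annotated ends need not be the ends used in these cells.

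**Figure D2:**
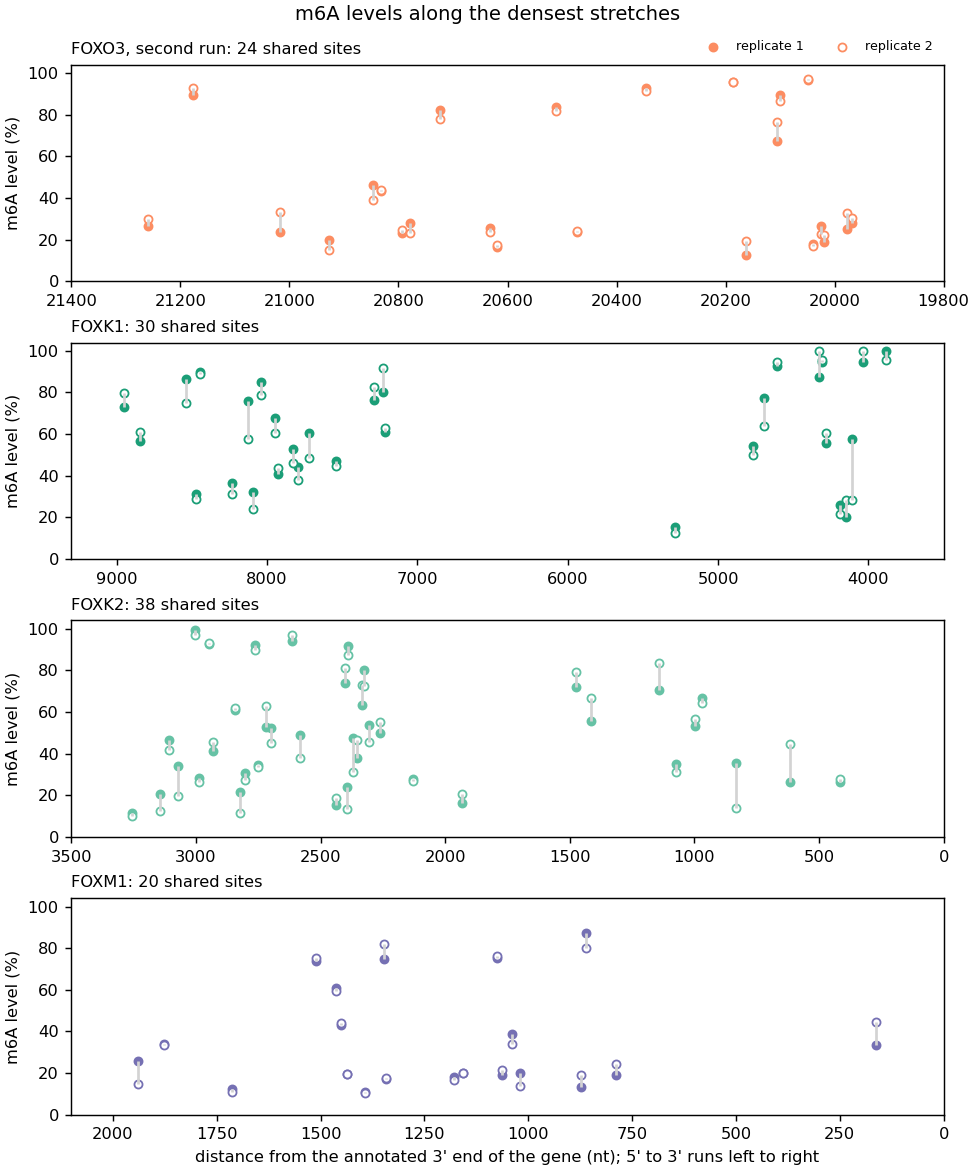
m6A level (%) of shared sites in replicate 1 (filled) and replicate 2 (open) against distance from the annotated 3′ end of the gene (nt, transcription from left to right), for the second run of FOXO3 and the 3′ stretches of FOXK1, FOXK2 and FOXM1; grey lines join the replicates of a site. High and low sites lie side by side in each of the stretches of 24, 30, 38 and 20 sites, in both replicates.

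FOXM1, the activator of mitotic genes such as cyclin B and polo-like kinase, was the most deeply covered member, at 112 and 131. Its mean level was below those of the FOXK and FOXO members. Replicate 1 listed 27 sites, replicate 2 listed 32, and 25 were shared, against a decile median of 4. The gene spans chr12:2857680-2877174 on the minus strand. The mean level was 36.1% and 35.6%, 35.9% ± 0.640 together, with a median of 27.1%. This is close to the decile median of 37.5%. Of its 25 sites 7 were under 20%, 10 from 20 to 40% and 1 at least 80%, position 2858541 (109 of 125 and 110 of 137 A reads, 83.7%). Position 2859072 had 21 of 195 and 22 of 213 (10.5%), near the limit of the lists. The most deeply read member site of all, 2858858, had 61 of 338 and 72 of 435 (17.3%).

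The mean of FOXM1 was also lower than those of FOXK2 and FOXO3 over well covered sites. With a minimum of 50 reads per replicate it was 36.1% ± 0.537 (20 sites), against 49.7% ± 0.551 for FOXK2 and 46.4% ± 0.483 for FOXO3 (34 sites). FOXM1 sites reached a higher depth, at which weaker sites can be listed. The part of depth in this difference was not tested. Counting SEs leave out the spread over sites. Over all shared sites the SD was 22.8 points in FOXM1, 25.4 in FOXK2 and 30.6 in FOXO3. By the median over all shared sites FOXM1 (27.1%) and FOXO3 (29.0%) were close, and FOXK2 was at 44.1%. Most FOXM1 sites, 20 of 25, lay in a run of 1778 nt that ended 162 nt before the annotated end and had a median of 21.0%. Another 4 lay within 153 nt, 2969 to 3121 nt from the start, with a median of 35.1%. The gene ITFG2 is annotated across the 3′ end of FOXM1, and 27 listed FOXM1 sites fall inside its span. They were listed on the minus strand, that of FOXM1.

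FOXJ2 and FOXJ3, activators studied in germ cells and, for FOXJ3, muscle, had fewer and weaker sites. FOXJ2 (chr12:8032716-8055517, plus strand) had 11 sites in replicate 1, 9 in replicate 2 and 7 in both, at gene coverages of 20.8 and 23.3. Its mean levels were 29.3% and 27.6%, 28.4% ± 1.94 together, below the decile median of 52.0%, and no shared site was above 38.1%. That highest site, 8039870, had 17 of 47 and 26 of 65 A reads. The lowest, 8033659, had 13 of 93 and 13 of 83 (14.8%), and the neighbouring 8033622, most deeply read, had 32 of 91 and 34 of 87 (37.1%). In FOXJ2 4 of 7 shared sites were within 2000 nt of the start, 238 to 943 nt from it. Position 8033250 in that stretch was read as A in 16 of 16 reads in replicate 1 and had no entry in replicate 2. Position 8032928, 212 nt from the start, had 14 of 24 A reads (58.3%) in replicate 2 and no entry in replicate 1. Both were above every shared FOXJ2 site and stand outside the shared count.

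FOXJ3 (chr1:42176548-42335880, minus strand) had 10 sites in replicate 1, 6 in replicate 2 and 6 in both, at gene coverages of 23.8 and 26.3. Its mean levels were 28.4% and 25.3%, 26.9% ± 1.98 together, again below the decile median of 52.0%. Position 42278634, far from the others, had 19 of 43 and 43 of 68 A reads (53.7%). The other 5 lay within 670 nt and had means from 18.3 to 24.3%, among them the most deeply read, 42179479, with 9 of 48 and 14 of 78. The counts of both FOXJ genes depend on which replicate is used. Without replicate 2 FOXJ2 had 11 sites and FOXJ3 had 10, over 1.5 times the shared counts, and without replicate 1 they had 9 and 6.

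FOXP4, a repressor studied in lung and gut development, had 11 sites in each replicate and 10 in both, at gene coverages of 44.1 and 50.7 (chr6:41546381-41602384, plus strand). Its mean levels were 25.3% and 26.3%, 25.8% ± 1.40 together, the lowest of the members with a shared site and below the decile median of 44.3%. Of its 10 sites 5 were under 20% and 1 stood apart, position 41599044 with 26 of 38 A reads in each replicate (68.4%). Position 41600139 was the lowest with 10 of 96 and 13 of 84 (12.9%), and 41599424 was the most deeply read with 21 of 84 and 20 of 113 (21.3%). A single site, 63 nt from the annotated start, was at 33.3% and 31.8%, within the span of the antisense gene FOXP4-AS1, and the other 9 lay within 1377 nt.

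FOXP1, a repressor needed in B cell and heart development, had 2 entries in each replicate and none in common (chr3:70954708-71583978, minus strand, gene coverage 14.6 and 15.8). Replicate 1 listed position 70958816 (14 of 18 A reads, 77.8%) and 70958885 (5 of 20, 25.0%), and replicate 2 listed 70958916 (15 of 26, 57.7%) and 70958923 (10 of 19, 52.6%). All 4 lay within 108 nt. With 18 to 26 reads the limit of 5 A reads alone put the lowest level that could be listed at 27.8 to 19.2%. FOXP1 gives no level of a shared site at this depth.

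Site counts were high for the coverage in 5 members, and levels lay on both sides of those of genes of like coverage. All 8 members with shared sites had more of them than the median of their coverage decile. FOXO3, FOXK2, FOXK1, FOXO1 and FOXM1 stood at or above the 97.9th percentile of their decile. FOXP4, FOXJ2 and FOXJ3 stood at the percentiles 73.3, 66.3 and 60.7. The median over the 8 members was 17.5 shared sites, against 4 over all 9521 genes with a shared site, at median gene coverages of 41.2 and 31.9. In level, FOXK1, FOXK2, FOXO1 and FOXO3 stood at the percentiles 85.5, 78.7, 71.3 and 68.2 of their deciles and FOXM1 at 45.6, while FOXP4, FOXJ2 and FOXJ3 stood at 16.6, 10.7 and 9.19. The median of the member mean levels was 41.7%, against 46.6% over all genes, and 18.4% of member sites were at least 80%, against 20.1% over all named genes. The members were chosen with results of these data known, so these positions describe them and are no test, and transcript length, which bears on the number of sites, was not analysed here.

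**Figure D3:**
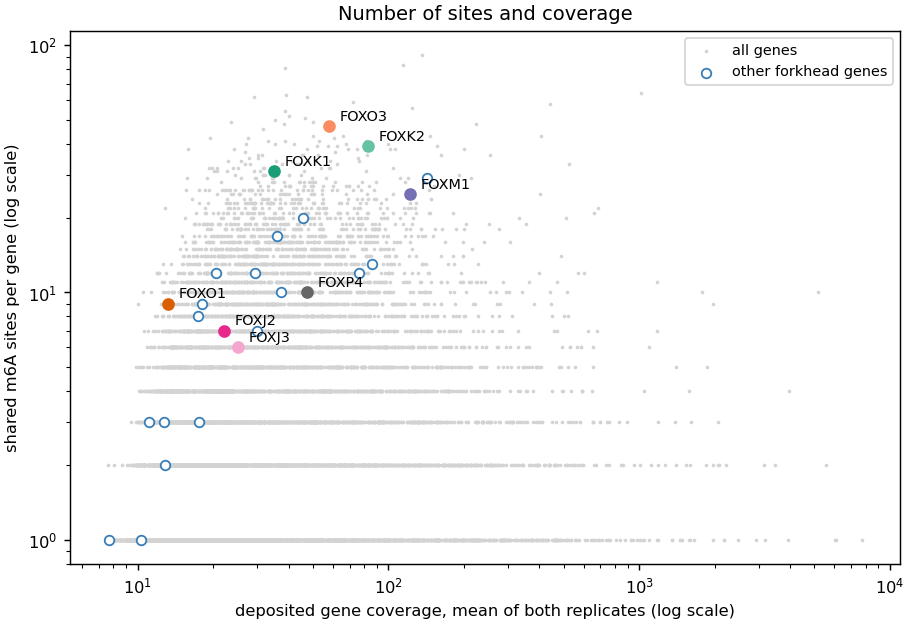
Number of shared m6A sites per gene against the deposited gene coverage (mean of both replicates, both axes logarithmic), for all 9521 genes with a shared site (grey), the other forkhead genes (open circles) and the 8 members (filled, named). FOXO3, FOXK2, FOXK1, FOXO1 and FOXM1 lie above most genes of like coverage, and FOXP4, FOXJ2 and FOXJ3 lie among them.

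Sites a few bases apart could differ greatly in level. In FOXO3 position 108664726 had levels of 96.7% and 97.0% in the replicates (60 and 99 reads), while position 108664734, 8 nt further, had 17.9% and 17.0% (56 and 88 reads). In FOXK2 3 sites within 13 bases alternated. Position 82602200 had 73.9% and 81.0%, position 82602208 had 23.9% and 13.4%, and position 82602212 had 91.9% and 87.5%. In the last run of FOXO3, position 108683344 had 17.4% and 14.3% and position 108683348, 4 nt on, had 86.4% and 80.2%. In FOXM1, position 2859028 had 75.0% and 82.0%, and 2859023, 5 nt downstream, had 17.2% and 17.9%. In each of these pairs the high and the low site kept their order in both replicates. The pairs were picked for a wide difference in the mean of the same replicates, so this order is no independent support.

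There were 11 pairs of member sites at most 10 nt apart, all in FOXO3, FOXK2 and FOXM1. The Wilson intervals of the summed reads did not overlap in 8 of the 11. The levels differed by at least 50 points in 5 (45.5%), against 658 of 3390 such pairs in all named genes (19.4%), but the median differences were alike, 23.0 and 23.5 points. Depth was not matched, since shared sites had median depths of 56 and 67 reads in the members and 43 and 51 in all named genes. The part of depth in these shares was not tested. The pairs share reads and 2 of them share a site, so they are not independent.

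**Figure D4:**
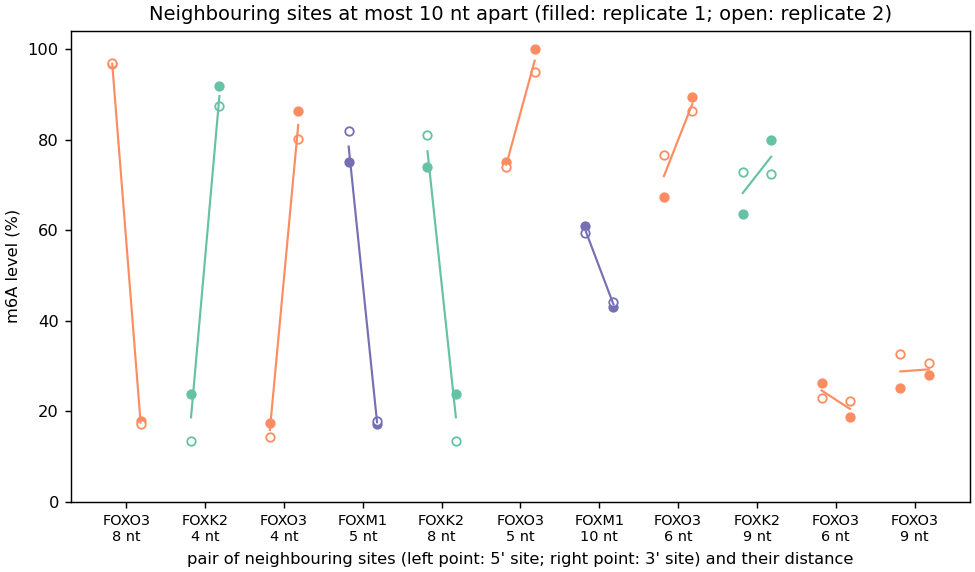
m6A level (%) of the 5′ site (left point) and the 3′ site (right point) of each of the 11 pairs of member sites at most 10 nt apart, in replicate 1 (filled) and replicate 2 (open), with a line between the means. In 5 pairs the levels differ by at least 50 points, and either the 5′ or the 3′ site can be the higher one.

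The replicates were compared at each shared site. Fisher's exact test, two-sided, with Benjamini-Hochberg adjustment over all 60462 shared sites, separated the replicates at 0 of the 174 member sites with an adjusted p under 0.05, as at 0% of all sites. An unadjusted p under 0.05 was found at 8 member sites (4.60%), against 3.06% of all. Of these 8, 4 were in FOXK2 and 1 each in FOXK1, FOXM1, FOXO1 and FOXO3. The smallest p was at FOXO3 position 108561699, with 18 of 108 A reads (16.7%) and 41 of 126 (32.5%) (Fisher's exact test, p = 0.00642, adjusted p = 1). A chi-square test also called 0 after adjustment and had 11 at an unadjusted p under 0.05. The widest gap was in FOXK1 at position 4767332, 57.7% (15 of 26) against 28.1% (9 of 32) (Fisher's exact test, adjusted p = 1).

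Across the 174 member sites levels in replicate 1 and replicate 2 gave Pearson's r = 0.956 and Spearman's rho = 0.923, as a description over sites that share libraries. The median difference was 4.43 points, and the mean chi-square of the difference was 1.06, against 0.931 over all sites, where 1 is the value that sampling of reads alone gives. Only sites that passed the limits in both lists could enter, which leaves out sites listed once. The value therefore cannot show that the whole lists differed within sampling noise. The replicates were counted as 1 sample, with values given for each or as their mean and no SD. Among the members the mean chi-square was highest in FOXJ3 (1.47 over 6 sites) and FOXK2 (1.46 over 39).

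**Figure D5:**
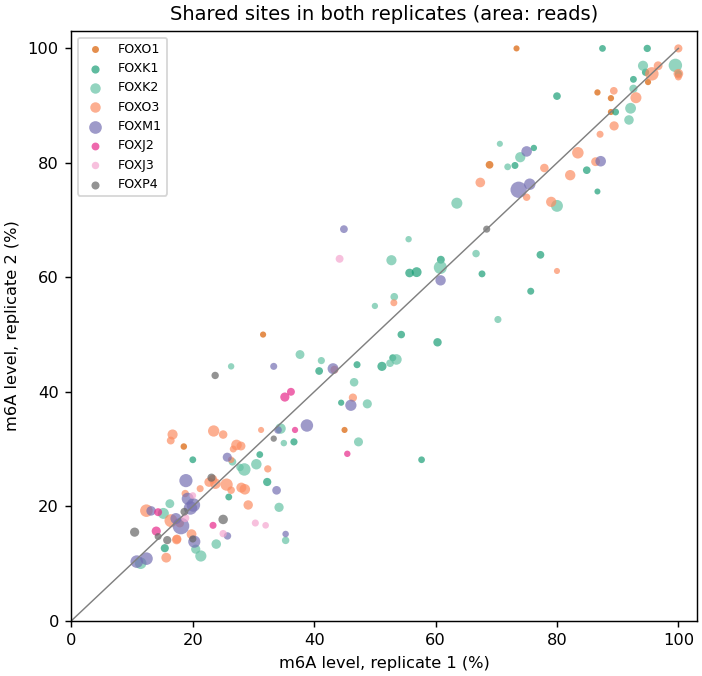
m6A level (%) of the 174 shared member sites in replicate 1 and replicate 2, coloured by gene, with the area of a point growing with its reads and the line of equal levels. The site with the widest gap between replicates is the FOXK1 site at 57.7% and 28.1%.

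The lists overlapped more for the members than for all genes. Of 238 member sites in either replicate 73.1% were shared, against 64.6% of all sites, at median depths of shared sites of 56 and 67 reads for the members and 42 and 49 for all. Sites in 1 list alone numbered 26 in replicate 1, with a median level of 20.3%, and 38 in replicate 2, with 22.9%. Only 3 of those were at least 80%, each read as A throughout: FOXJ2 position 8033250, FOXK1 position 4764049 (19 of 19, replicate 2) and FOXO1 position 40560111 (20 of 20, replicate 2).

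Of the 36 other forkhead genes looked up, 19 were listed and 17 had shared sites, 162 in all, with a median of 9 sites and a median level of 61.7%. In 13 of the 17 the number of sites was above the median of the coverage decile, and in 12 the level was. FOXC1, a mesoderm and eye development factor, had 29 sites at 49.2% ± 0.50 (counting SE), FOXF1 had 17 at 45.5% ± 1.31 and FOXF2 had 13 at 58.3% ± 0.993. Among those with at least 3 sites the highest mean was that of FOXA1, a pioneer factor of endoderm, with 8 sites at 82.4% ± 1.93. The lowest was that of FOXO4, the FOXO relative, with 10 sites at 44.2% ± 1.74. Their median gene coverage was 20.5. The median level of these genes fell with a coverage minimum, to 55.9% at 30 reads and 47.6% at 50.

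Upstream of FOXO, 12 of 15 genes of insulin and PI3K-AKT signalling had shared sites, 121 in all, with a median level of 44.1%. Their median gene coverage was 24.5. The site count was above the decile median in 8 and the level in 5. IGF1R, the IGF1 receptor, had 46 sites at 50.04% ± 0.811, close to FOXO3 in number, and INSR, the insulin receptor, had 15 at 44.4% ± 1.40. PDPK1, the kinase that activates AKT, had 14 at 43.8% ± 1.37, and AKT2, the kinase itself, 13 at 38.2% ± 0.747. Among those with at least 3 sites the highest level was that of PIK3R1, the regulatory subunit of PI3K (3 sites, 74.5% ± 3.22).

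All 24 genes for partners and modifiers of forkhead proteins had shared sites, 275 in all, with a median level of 38.7%. Their median gene coverage was 71.7. The site count was above the decile median in 15 and the level in 9. ASXL1, which binds BAP1, had 59 sites at 50.7% ± 0.441. The acetyltransferase genes EP300 and CREBBP had 36 at 56.4% ± 0.724 and 24 at 68.7% ± 1.13, and SIN3B, a corepressor bound by FOXK proteins, had 20 at 41.2% ± 1.16. DVL2, which FOXK proteins carry to the nucleus, had 22.5% ± 1.66 over 3 sites. Of the genes with at least 3 sites, CREBBP had the highest level and DVL2 the lowest.

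Of 26 FOXO target genes 18 had shared sites, 106 in all, with a median level of 44.0%. Their median gene coverage was 47.0. The site count was above the decile median in 10 and the level in 7. The autophagy kinase gene ULK1 had 14 sites at 52.8% ± 1.38, CITED2 12 at 58.9% ± 1.08 and the apoptosis gene PMAIP1 11 at 45.6% ± 0.712. Of those with at least 3 sites SESN2, a stress-induced inhibitor of mTORC1 signalling, was highest at 61.1% ± 0.964 over 10 sites, and the cell cycle inhibitor CDKN1A lowest at 23.4% ± 1.62 over 5.

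Of 17 FOXM1 target genes 15 had shared sites, 87 in all, with a median of 2 sites and a median level of 35.0%. Their median gene coverage was 70.7. Coverage thus differed between the lists, and the part of depth in their differences in level was not tested. The site count was above the decile median in 5 and the level in 5, with 10 of the 15 below it in each. The centromere protein gene CENPF had 28 sites at 43.9% ± 0.889, MYC 19 at 50.5% ± 0.537, BIRC5, which encodes survivin, 11 at 33.3% ± 1.02, and TOP2A, the type II topoisomerase, 5 at 37.4% ± 1.36. CCNB1, cyclin B, had 18.8% ± 1.28 over 3 sites. Of the genes with at least 3 sites, which leaves out those at or below this list's median number, MYC had the highest level and CCNB1 the lowest.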

How the data were processed

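The authors deposited their called sites as 1 file per replicate. Per the file headers a line gives position, strand, gene name, the count of A plus G reads, the count of A reads and their ratio as a fraction (the level). Per gene the deposited files add the fraction converted and a coverage, and per site a raw and an adjusted p-value. Per the submitters' processing notes the tools were STAR, Bowtie, SAMtools and Trim Galore 0.6.6, and the build was GRCh38. Not given in the sources used here are the site caller, the annotation and the formula of the gene coverage.

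Here the level of a shared site is the mean of both replicates and that of a gene the mean over its shared sites. Errors are counting SEs or 95% Wilson intervals and cover counting error only, since reads need not be independent molecules. Decile medians and percentiles (genes below plus ties at equal weight on both sides) refer to genes with a shared site in the same of 10 classes of deposited gene coverage. Fisher's exact test was run on counts over all shared sites (SciPy 1.17.1). On simulated data it was tested only for a large change at deeply read sites. Its power at the lower depths of many member sites was not tested. Gene spans are those of RefSeq (GRCh38.p14), in which all 9 members were found. The text names, for each member, the highest, lowest and most deeply read shared site, and for each list the up to 4 genes with most sites and the extremes of level among genes with at least 3 sites. Some genes that this rule takes are not reported here. Runs, close pairs and other sites were chosen after their values were seen. The members and lists were chosen with earlier results of these data known.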

Additional observations from a re-analysis of the deposited data

How the results depend on the processing

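The 174 shared member sites became 92 at 50 reads in both replicates, and stayed within 1.5 times 174 at 30 reads (140), with levels of at least 20% (130), with 1 list alone (200 to 212) and with sites of either list (238). The median of the member mean levels, 41.7%, was 41.5% at 30 reads, 39.9% at 50 reads (6 members left), 52.7% with levels of at least 20%, 44.5 to 45.8% without 1 replicate (9 members, FOXP1 included), 41.0% with reads summed, 32.0% with the median of the site levels, and 39.5% with each gene's unconverted share subtracted, an alternative chosen after seeing the data. Fisher's exact test gave 0 adjusted calls among member sites in the main test, by chi-square and at 50 reads, with 8, 11 and 4 at an unadjusted p under 0.05. Of the other values recomputed for members, pairs and lists 95 kept within the spread or ratio set for them and 93 moved. None of the 5 neighbour pairs that differed by at least 50 points was left with levels of at least 20%, since each holds a site below that level. Depth limits FOXO1, FOXJ3 and FOXP1, which had no site at 50 reads. No paired analysis was possible because there is only 1 group. The planned shares in coding sequence, UTR and canonical motif, sites per kilobase of transcript and paralogous positions were not run, since they need a genome, transcripts and proteins that were not used here.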
